A study of Bos taurus with 40 samples.

Results

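Among the spots of a custom array of airway smooth muscle genes, 4 duplicate spot pairs were selected for their higher signal in stretched strips of bovine tracheal muscle, and they are described here over drug, stretch and animal. Pair A is spots 7 and 8, pair B spots 35 and 36, and pair C spots 67 and 68. Pair D is the duplicate pair that lies between spots 954 and 957, and the plots give its spot numbers. These 8 spots, out of 1040 on the array, form 4 of 520 duplicate pairs, and all 4 are among the 190 pairs with enough values to be tested. The pairs were selected on the stretch comparison of these same samples, so their stretch values are given as a description, with no test, and support nothing. The platform annotation at hand names 30 spots, and 0 of the 8 member spots are among them. The genes behind the 4 pairs are therefore not identified here, and no probe sequence was at hand to print. Control transcripts were spiked into the RNA before labelling, per the labels' protocols, and the spots that detect them were not listed in the sources used here. Whether any of the 4 pairs is such a control was not tested.

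Strips of smooth muscle came from tracheae of 5 slaughterhouse cattle, with age and breed not given in the sources used here. Muscle of every animal received all 4 treatments, and all strips were kept in physiological salt solution, which the labels also call saline. The saline unstretched group had no drug and no oscillation. The saline stretched group had no drug and a sinusoidal length oscillation of 10% of muscle length at 1 Hz. The carbachol unstretched group had 1 µM carbachol and no oscillation, and the carbachol stretched group had 1 µM carbachol and the same oscillation. Each group thus had 5 RNA samples, 20 in all. Every RNA was split for Cy3 and for Cy5 labelling, and the resulting 40 labelled samples filled the 2 channels of 20 arrays.

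Airway smooth muscle lies in the wall of the trachea and bronchi and sets airway calibre by contracting. Carbachol is a stable agonist of muscarinic acetylcholine receptors, the receptors through which parasympathetic nerves contract this muscle. In the body the muscle is stretched by each breath, and cyclic length oscillation of a strip in an organ bath is used to imitate that load, alone or against a contracted muscle. The design therefore asks which transcripts follow the load, which follow the agonist, and whether the answer to load differs in contracted muscle.

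The labels describe the muscle layer as cut out together with adventitia and mucosa, with their later removal not given in the sources used here. None of the listed markers of smooth muscle, epithelium, fibroblasts, endothelium or leukocytes is a named and measured spot (0 measured), so the tissue label was not checked against markers. In such bulk samples, fewer cells of a type and less RNA per cell cannot be told apart. Arrays held values for 334 to 575 spots, and the median intensity of a channel ranged from 1046 to 6042.5. With 5 animals, their number limits precision. The p-values rest on how treatment differences vary between these animals, with spread between labellings and arrays included.

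Pair A separated stretched from unstretched strips in every animal measured. Its raw readings, the deposited linear intensities before any correction, had a median of 1190.5 in saline unstretched strips and 1039 in carbachol unstretched strips. With stretch the median was 4472 in saline and 4800 in carbachol. In unstretched strips the pair was dim, with level rank 178 of 190 from the brightest and readings down to 598. The lowest reading of the whole series was 369. How much of such dim readings was background was not tested. After correction of each array, the log2 intensity in saline unstretched strips was 10.16, 9.77, 10.11 and 10.42 in animals 1, 2, 3 and 5, with a mean of 10.12 ± 0.27 (SD, n = 4). In carbachol unstretched strips it was 10.28, 9.93, 9.90, 10.42 and 10.77 in animals 1 to 5, with a mean of 10.26 ± 0.36 (SD, n = 5). Stretched strips were higher in both drugs. In saline stretched strips the values were 12.33, 11.68, 12.05, 11.61 and 11.95, with a mean of 11.92 ± 0.29 (SD, n = 5). In carbachol stretched strips they were 11.52, 12.70, 12.80 and 11.79 in animals 1, 2, 3 and 5, with a mean of 12.20 ± 0.64 (SD, n = 4). The highest of 9 unstretched values, 10.77, lay below the lowest of 9 stretched values, 11.52, so the groups did not overlap. This separation, like that of the other members below, belongs to the comparison that chose the pairs and is a description. The share of all tested pairs without overlap was not counted. Pair A was blank on array 14, which held the saline unstretched and carbachol stretched RNA of animal 4. Array 15 measured these RNA samples at 10.61 and 11.62, a log2 ratio of 1.01. Those 2 values were left out because both labellings of an RNA were required.

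Pair B separated the stretched from the unstretched strips in saline and less clearly in carbachol, with raw medians of 3294.5 in saline unstretched, 4466.5 in carbachol unstretched, 17497 in saline stretched and 19448.5 in carbachol stretched strips. The log2 intensity in saline unstretched strips was 12.08, 10.74, 11.74, 11.08 and 11.98 in animals 1 to 5, with a mean of 11.52 ± 0.59 (SD, n = 5). In saline stretched strips it was 14.34, 13.36, 13.78, 13.64 and 14.10, with a mean of 13.84 ± 0.38 (SD, n = 5), and all 5 lay above every unstretched saline value. Carbachol strips had larger SDs. Unstretched they measured 12.46, 11.09, 11.46, 12.85 and 13.50, with a mean of 12.27 ± 0.99 (SD, n = 5). Stretched they measured 13.11, 15.03, 14.42, 13.14 and 14.04, with a mean of 13.95 ± 0.83 (SD, n = 5). The unstretched carbachol strip of animal 5, at 13.50, lay above the stretched carbachol strips of animals 1 and 4, so the carbachol groups overlapped.

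Pair C had the largest stretch change of the 4. Its raw medians were 4294 in saline unstretched, 8408 in carbachol unstretched, 46785 in saline stretched and 42128 in carbachol stretched strips. The log2 intensity in saline unstretched strips was 12.52, 10.88, 11.86, 12.08 and 13.05 in animals 1 to 5, with a mean of 12.08 ± 0.81 (SD, n = 5). In saline stretched strips it was 15.36, 14.63, 15.57, 15.00 and 15.45, with a mean of 15.20 ± 0.38 (SD, n = 5). These groups did not overlap. Unstretched carbachol strips covered the widest range of its 4 groups, at 12.89, 10.97, 12.30, 14.36 and 14.92, with a mean of 13.09 ± 1.59 (SD, n = 5). Stretched carbachol strips measured 13.998, 16.10, 15.17, 14.56 and 15.32, with a mean of 15.03 ± 0.80 (SD, n = 5). The unstretched carbachol strips of animals 4 and 5 lay above the stretched carbachol strip of animal 1. Readings above 50000 were found for this pair alone among the 4, 15 of its 80 readings, 6 in saline stretched and 9 in carbachol stretched strips. The highest was 62909, near 65535, which would be the ceiling if the readings were 16-bit. The sources used here do not give that. A reading at the ceiling would understate the stretched level, and how many readings were limited in that way was not tested.

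Pair D had the smallest stretch change of the 4, with raw medians of 7234 in saline and 10057.5 in carbachol, against 25617.5 and 22071 with stretch. The log2 intensity in saline unstretched strips was 13.72, 11.95, 12.45, 12.91 and 13.37 in animals 1 to 5, with a mean of 12.88 ± 0.70 (SD, n = 5). In saline stretched strips it was 14.97, 13.77, 13.89, 14.71 and 14.15, with a mean of 14.30 ± 0.52 (SD, n = 5). The saline groups came close, at 13.72 and 13.77, without overlapping. Unstretched carbachol strips measured 14.04, 12.21, 12.30, 14.31 and 13.65, with a mean of 13.30 ± 0.98 (SD, n = 5). Stretched carbachol strips measured 13.92, 15.24, 14.33, 13.76 and 14.39, with a mean of 14.33 ± 0.58 (SD, n = 5). Here 2 unstretched values lay above the lowest stretched one, both of them from carbachol strips.

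**Figure D1:**
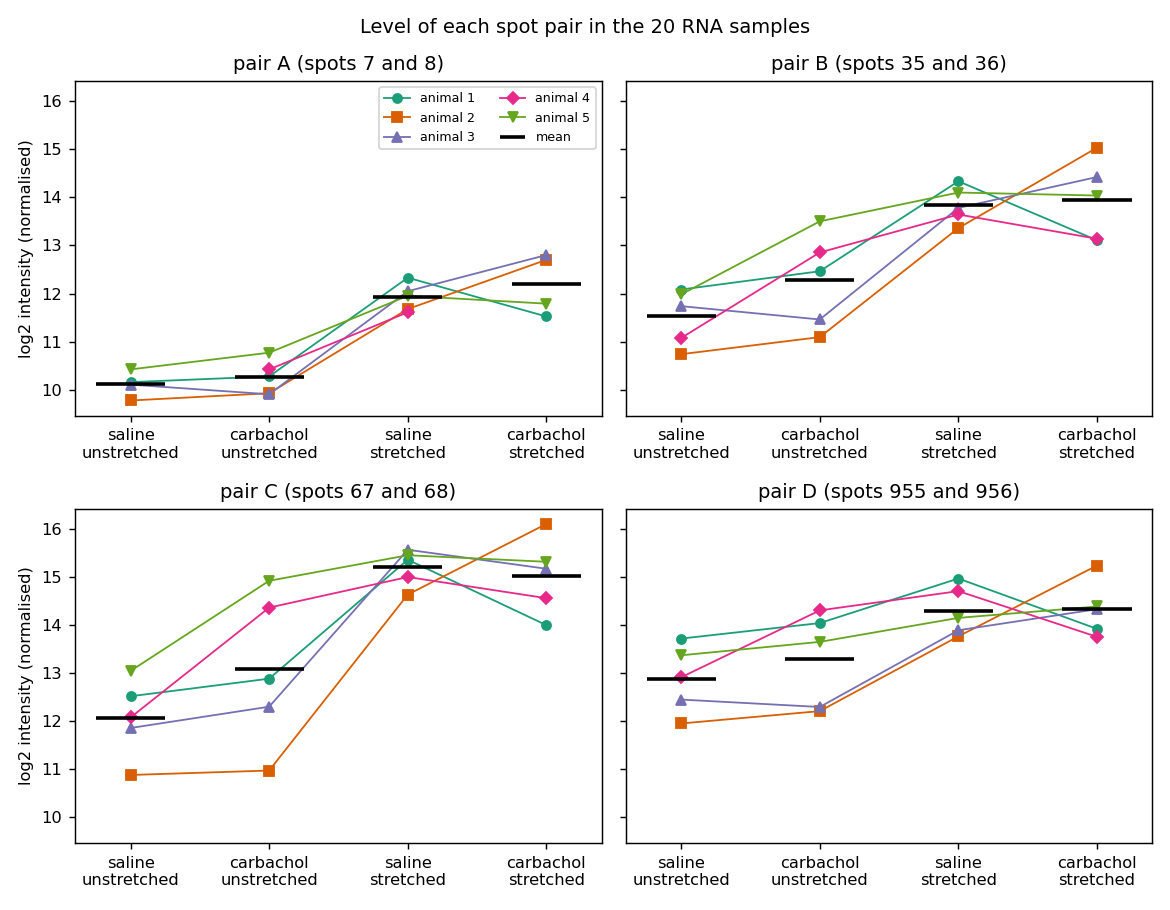
Log2 intensity (vertical axes) of the 4 spot pairs in each of the 4 treatment groups, 1 point per animal joined by a line, with the group mean as a black bar. Pair A shows a gap from 10.77 to 11.52 between unstretched and stretched strips, whereas the carbachol groups of the other pairs overlap.

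Averaged over both drugs, the stretch change that selected the pairs was 2.53 ± 0.36 (SE) on the log2 scale for pair C, a fold of 5.79. Pair B had 2.00 ± 0.29 (SE), pair A 1.88 ± 0.19 (SE), and pair D 1.22 ± 0.26 (SE). The background of this comparison is 3.16% of 190 tested pairs past an adjusted p of 0.05 in limma, 6 pairs, all of them higher with stretch. The 4 members are among those 6 because that comparison chose them. The other pairs past the threshold were PRKCE, the gene of the signalling kinase protein kinase C epsilon, at 0.63, and the unnamed spots 93 and 94 at 0.42. Pair D, at 1.22, lies just inside the members, and PRKCE is the next called pair below it.

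The same readings can be set out as ratios between the channels of single arrays. These readings chose the pairs, so the counts are a description and add no support. Of the 20 arrays, 18 held a stretched sample in one channel and an unstretched sample in the other. The stretched channel was brighter after correction on 17 of 17 such arrays for pair A and on 18 of 18 for pair B. It was brighter on 17 of 18 arrays for pair C and also for pair D. The median log2 ratio was 1.63, 1.87, 2.58 and 1.02 for the 4 pairs from A to D. In raw readings the stretched channel was brighter on 17 of 17, 18 of 18, 18 of 18 and 17 of 18 arrays. Only 3 arrays compared stretch within 1 animal and 1 drug. For pair C these gave a log2 ratio of 4.60 in saline for animal 2, 3.67 in saline for animal 3 and 5.32 in carbachol for animal 2. On the array of animal 2 in saline, spot 67 read 2181 in the unstretched and 47607 in the stretched channel, and spot 35 read 1933 and 19069. The 2 arrays that held like stretch states still showed gaps between animals. Array 6 held carbachol stretched RNA of animals 1 and 3, and animal 3 was brighter by 1.26, 1.44, 2.24 and 0.60 for the 4 pairs.

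**Figure D2:**
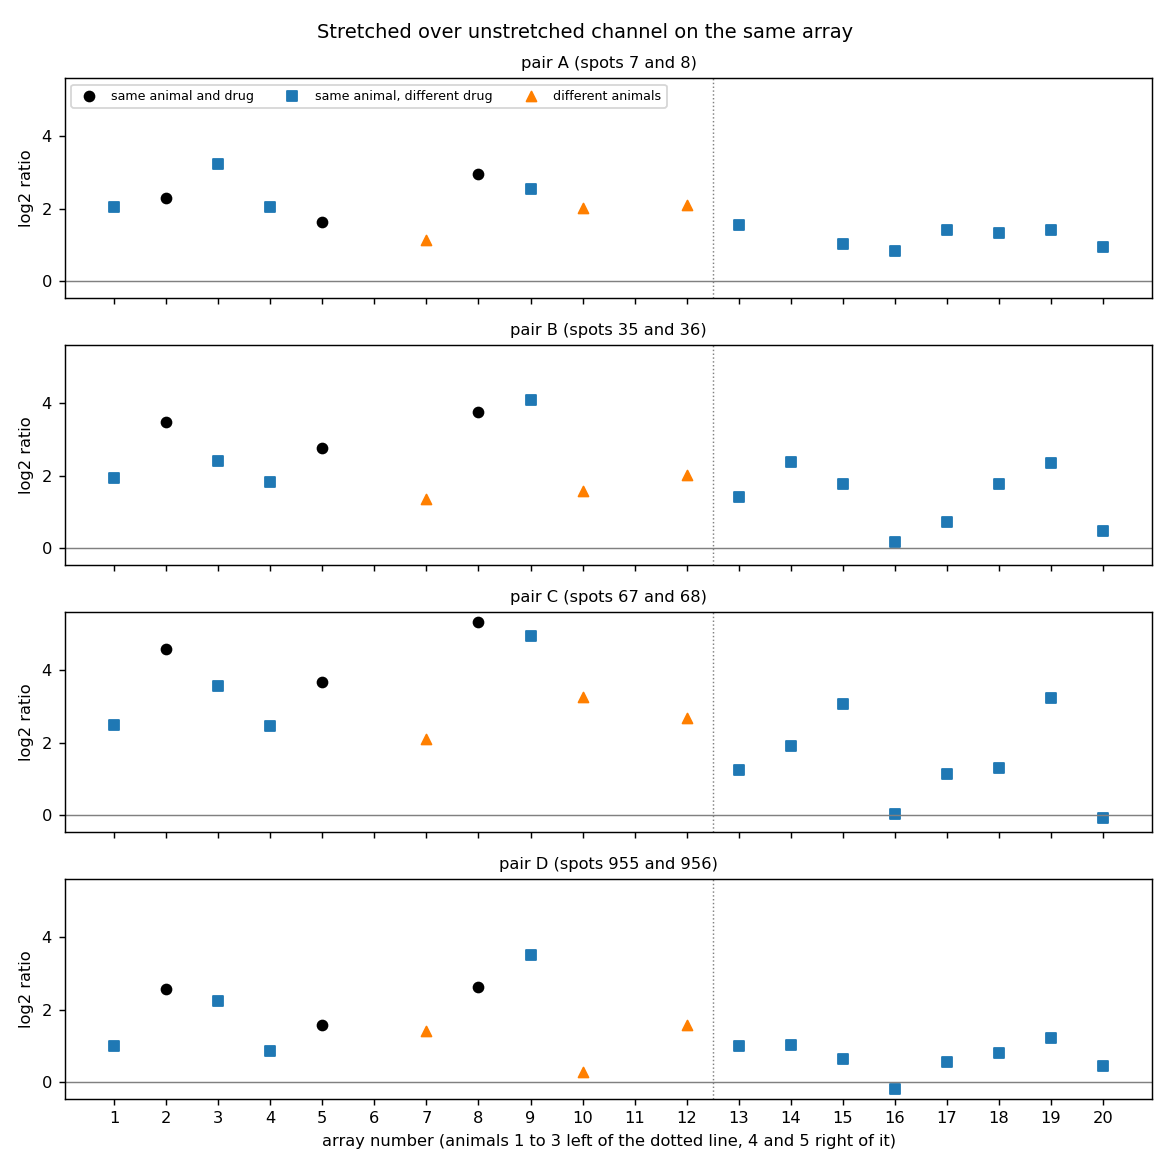
Log2 ratio of the stretched over the unstretched channel (vertical axes) on each array (horizontal axis), after correction, with symbols for whether both channels came from the same animal and drug. Ratios run from -0.07 to 5.32 for pair C, and the lowest of all 4 pairs is -0.19 for pair D on array 16.

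Repeat arrays with the dyes exchanged existed for 5 combinations of RNA samples. For animal 1, saline stretched over carbachol unstretched, pair A gave 2.05 and 2.06, and pair C gave 2.50 and 2.45. Repeats were further apart in animals 4 and 5. For animal 5, carbachol stretched over saline unstretched, pair C gave 1.30 on one array and 3.24 on the other. For animal 4, saline stretched over carbachol unstretched, pair D gave 0.99 and -0.19. Measured with Cy3 alone, the mean stretch change over animals was 1.71 ± 0.68 (SD, n = 4) for pair A and 2.20 ± 1.43 (SD, n = 5) for pair C. With Cy5 alone it was 2.17 ± 0.59 (SD, n = 4) and 2.87 ± 1.22 (SD, n = 5). All animals were above 0 with either dye, except 1 animal for pair D with Cy5.

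For all 4 pairs the stretch change had a larger SD over animals in carbachol than in saline, a difference in spread that was not tested. In saline, pair C changed by 2.84, 3.75, 3.71, 2.92 and 2.41 in animals 1 to 5, an SD of 0.59. In carbachol the same pair changed by 1.11, 5.13, 2.87, 0.20 and 0.40, an SD of 2.07. Animals 2 and 3 gave the highest values of this pair in both drugs, and animals 4 and 5 were near 0 in carbachol. In animals 4 and 5, stretched and unstretched RNA of the same drug lay on different arrays. On shared arrays, their carbachol stretched RNA exceeded saline unstretched RNA by 2.48 and 2.27 on average for this pair. Their saline stretched RNA exceeded carbachol unstretched RNA by 0.64 and 0.53. Pair B changed by 2.25, 2.62, 2.04, 2.57 and 2.12 in saline, an SD of 0.26, and by 0.64, 3.94, 2.96, 0.29 and 0.54 in carbachol, an SD of 1.66. For pair A the saline changes were 2.17, 1.90, 1.94 and 1.53 and the carbachol changes 1.25, 2.78, 2.90 and 1.02, in animals 1, 2, 3 and 5, with SDs of 0.27 and 0.99. Pair D changed by 1.25, 1.81, 1.44, 1.79 and 0.78 in saline and by -0.12, 3.03, 2.03, -0.55 and 0.74 in carbachol, with SDs of 0.43 and 1.49. In carbachol, animals 2 and 3 were the highest for every one of the 4 pairs, and animals 1 and 4 were below 0 for pair D.

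Whether the stretch change depended on carbachol was tested as the change in carbachol minus the change in saline, a comparison that did not choose the pairs. In limma none of the 190 pairs passed an adjusted p of 0.05, a background of 0%, and 9 pairs reached an unadjusted p below 0.05. Pair C had a difference of -1.18 ± 0.72 (SE), with a 95% interval from -2.71 to 0.34 and an adjusted p of 0.851. By size this was the 2nd of 190, and by p the 23rd. For pair B the difference was -0.65 ± 0.58 (SE), with an interval from -1.88 to 0.58 and an adjusted p of 0.851. Pair D had -0.39 ± 0.53 (SE), with an interval from -1.50 to 0.72 and an adjusted p of 0.914. Pair A had 0.10 ± 0.41 (SE), with an interval from -0.77 to 0.96 and an adjusted p of 0.972. The sign changed in at least 1 other setting of the processing for each of the 4 pairs, so no direction is read from these values. The median of the 4 members was -0.52, against 0.02 over all 190 pairs, and 1 of the 4 was above 0 against 54.2% of all pairs. These intervals include differences larger than 1 on the log2 scale for 3 of the 4 pairs, so a dependence of that size is not shown to be absent.

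The animals differed by array layout in this comparison. In animals 1, 4 and 5 the saline stretched and carbachol unstretched RNA shared arrays, so that for these animals the dependence lies between arrays. In animals 4 and 5, where each array held either these RNA samples or the carbachol stretched and saline unstretched ones, it is by construction a difference between the mean levels of the arrays. Animals 2 and 3 had other pairings, and array levels enter their dependence too. Their carbachol stretched and saline unstretched RNA, which both add to it, shared array 9 in animal 2 and array 3 in animal 3. In animals 1, 4 and 5 the difference was -1.73, -2.73 and -2.01 for pair C, -1.61, -2.28 and -1.58 for pair B, and -1.37, -2.34 and -0.04 for pair D. In animals 2 and 3 it was 1.38 and -0.84 for pair C, 1.32 and 0.92 for pair B, and 1.22 and 0.59 for pair D. Pair A had -0.93 and -0.51 in animals 1 and 5 and 0.87 and 0.95 in animals 2 and 3. With animals 4 and 5 alone, whose RNA was on arrays 13 to 20, the difference was -2.37 for pair C and -1.93 for pair B, both with an adjusted p of 0.0100 in limma. With animals 1, 4 and 5, a grouping made after seeing the data, it was -2.15 and -1.825. Both had an adjusted p of 0.0382 in limma, which is no test because the animals were grouped with their values known. With animals 2 and 3 alone, also grouped after seeing the data, the difference was 0.27 and 1.12. Array layout and animal cannot be told apart, and the part of either in these values was not tested.

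**Figure D3:**
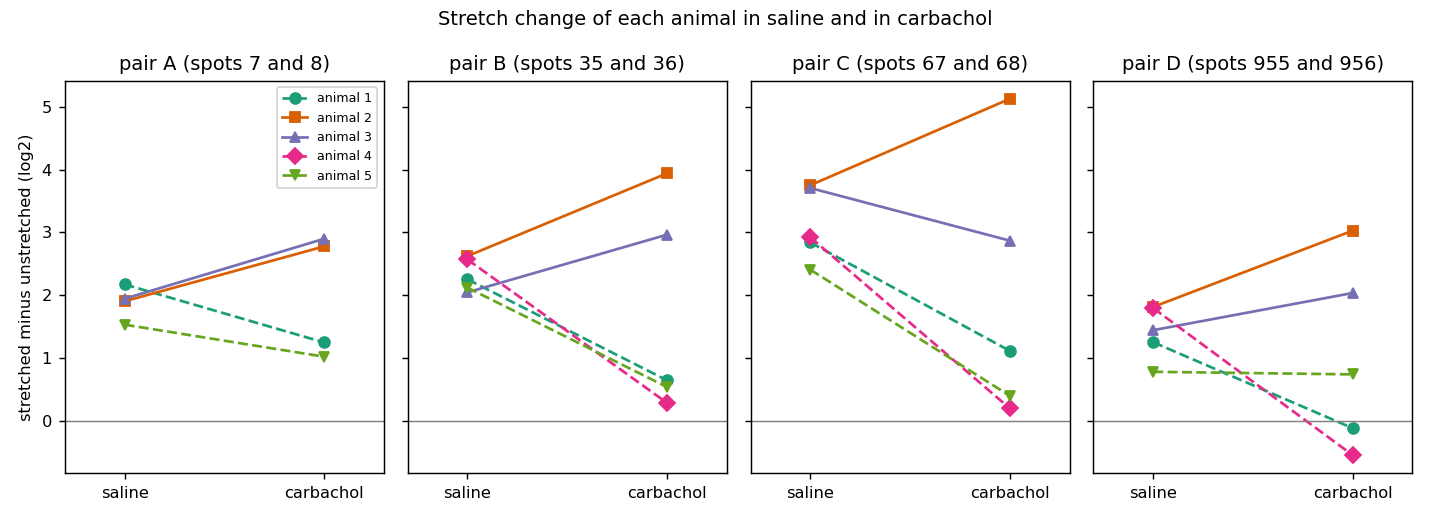
Stretch change on the log2 scale (vertical axis) in saline and in carbachol, with 1 line per animal. Dashed lines are animals 1, 4 and 5, whose saline stretched and carbachol unstretched RNA shared arrays, and solid lines are animals 2 and 3. For pair C the saline values lie between 2.41 and 3.75 and the carbachol values between 0.20 and 5.13.

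Carbachol itself, averaged over both stretch states, gave higher mean values for all 4 pairs, against 46.8% of the 190 pairs above 0. None of the 4 passed the test. They moved together over the RNA samples, as given below, so their shared sign is not 4 separate results. The sign was the same in the alternative settings, which reuse the same RNA samples and arrays. These were the 23 settings that could fit pairs B and D, the 22 for pair C and the 21 for pair A. The sign was not the same in all animals. Animal 1 was below 0 for every pair, at -0.34, -0.42, -0.50 and -0.36 from A to D, and the other measured animals were above 0. Pair A could not be fitted with animals 1, 4 and 5 alone, where its mean difference was -0.13 over animals 1 and 5. The difference was 0.43 ± 0.29 (SE) for pair B, 0.42 ± 0.36 (SE) for pair C, 0.22 ± 0.26 (SE) for pair D and 0.21 ± 0.19 (SE) for pair A. The adjusted p in limma was 0.976 for each. The background was 0% of 190 pairs, with 11 pairs whose unadjusted p was under 0.05. The 95% intervals ran from -0.19 to 1.04, -0.34 to 1.18, -0.33 to 0.78 and -0.20 to 0.62 for those pairs in that order. The median of the 4 members was 0.32, against -0.01 over all 190 pairs. With animals 4 and 5 alone, pair C had 0.90 ± 0.11 (SE), with an adjusted p of 0.0246 in limma. That p rests on the spread between these animals only, and no call is read from it.

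In unstretched strips, where the muscle had the agonist and no oscillation, pair C had the largest carbachol difference of all 190 pairs, and it did not pass the test. It was 0.37, 0.09, 0.44, 2.29 and 1.87 in animals 1 to 5. All 5 animals were above 0, and animals 4 and 5 were far above the other 3. The mean difference was 1.01 ± 0.51 (SE), a fold of 2.02, with a 95% interval from -0.07 to 2.09 and an unadjusted p of 0.0646 in limma. By p this was the 8th of the 190 pairs. Pair B, the 3rd largest by size and 13th by p, had 0.38, 0.36, -0.28, 1.78 and 1.52. Its mean was 0.75 ± 0.41 (SE), with an interval from -0.12 to 1.62. Pair D had 0.42 ± 0.37 (SE), with an interval from -0.37 to 1.20. The adjusted p was 0.931 for these 3 pairs. Pair A had 0.16 ± 0.28 (SE), with an interval from -0.43 to 0.76 and an adjusted p of 0.973, and its sign changed with arrays not shifted (-0.12) and with Cy3 alone (-0.09). None of the 190 pairs was called, a background of 0%, and 7 had an unadjusted p under 0.05. With animals 4 and 5 alone the difference was 2.08 for pair C, with an adjusted p of 0.00376, and 1.65 for pair B, with an adjusted p of 0.00543. In every animal, not in these alone, the unstretched carbachol and unstretched saline RNA lay on different arrays, as did the stretched ones. Within a stretch state, the carbachol differences thus lie between arrays in all animals. Animals and arrays cannot be told apart here either.

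In stretched strips the carbachol differences of pairs B, C and D were nearer to 0 than in unstretched strips, a gap that is the dependence tested above. None of 190 pairs was called, a background of 0%, and 15 pairs whose unadjusted p was under 0.05. Pair A had 0.26 ± 0.28 (SE), with a 95% interval from -0.33 to 0.86. Pair B had 0.10 ± 0.41 (SE), with an interval from -0.77 to 0.97, and pair D had 0.03 ± 0.37 (SE), with an interval from -0.76 to 0.81. Pair C had -0.17 ± 0.51 (SE), with an interval from -1.25 to 0.91. The adjusted p in limma was 0.848, 0.950, 0.980 and 0.934 for these pairs. The sign of the last 3 differences changed under at least 3 other settings of the processing, so no direction is read from them.

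**Figure D4:**
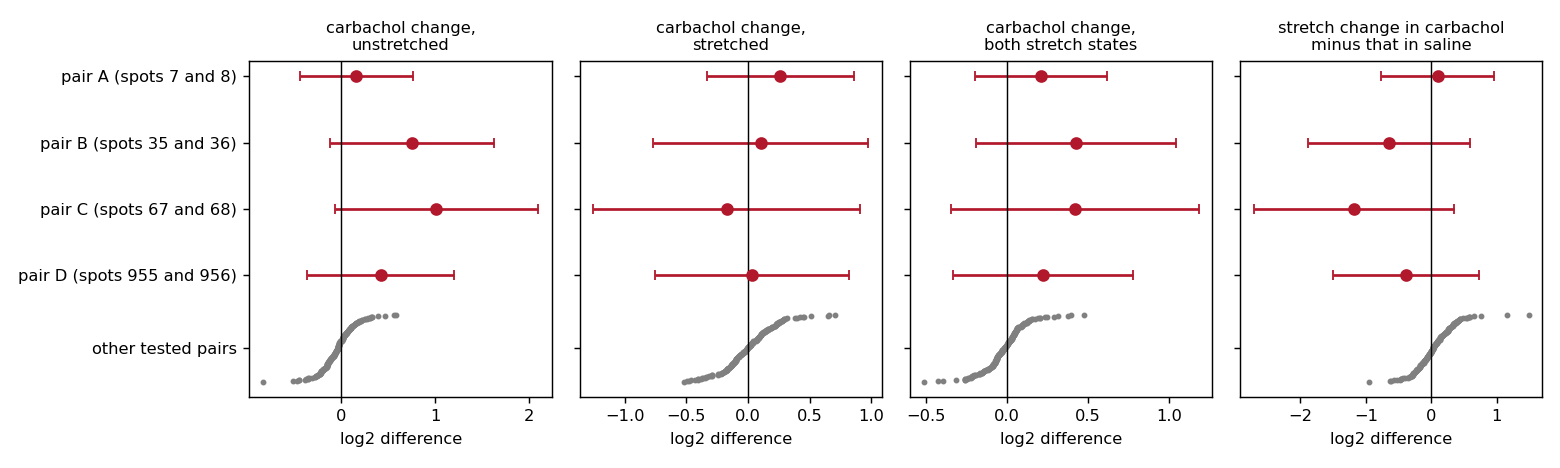
Carbachol differences and the dependence of the stretch change on carbachol on the log2 scale (horizontal axes, which differ in scale between panels), with 95% intervals for the 4 pairs and the other tested pairs in grey, sorted by value. The interval of every member includes 0 in every panel, and pair C lies at 1.01 in unstretched strips.

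The 4 pairs were among the more variable of the array. After the means of animal and treatment were removed, the remaining SD of pair C was 0.95, the largest of the 190 pairs. It was 0.76 for pair B (rank 3), 0.68 for pair D (rank 4) and 0.47 for pair A (rank 18), against a median of 0.26 over all pairs. Duplicate spots of an array lay close together, with median differences of 0.11, 0.09, 0.12 and 0.14 for the 4 pairs from A to D (ranks 86, 113, 63 and 17 from the widest), against a median of 0.11 over all pairs. Labellings of 1 RNA on different arrays differed more. The SD between the Cy3 and Cy5 values of an RNA was 0.74 for pair C (rank 3), 0.59 for pair D (rank 10), 0.48 for pair B and 0.36 for pair A, against a median of 0.35. The widest gap was 2.97, for pair C in the carbachol stretched RNA of animal 1, which read 12.52 with Cy3 and 15.48 with Cy5. That RNA gave the lowest stretched value of this pair. Spread between duplicate spots was thus small beside spread between labellings and arrays for pair C.

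The 4 pairs moved together over the RNA samples. As levels, the Pearson r was 0.97 between pair B and pair C, and 0.94 between pair A and pair B. The lowest of the 6 values was 0.79, between pair A and pair D. Part of this is fixed by the choice of pairs that all differ with stretch. Residuals after animal and treatment means were removed do not carry the mean stretch change, and there r was between 0.80 and 0.94, with 0.94 for pair B against pair C and also against pair D. Over all 17955 combinations of tested pairs the median residual r was 0.03 and the 99th percentile 0.88. These values rest on 20 RNA samples, 18 where pair A is involved, which share animals and arrays and are not independent. When array effects were removed as well, within sets of arrays linked by shared RNA samples, r among pairs B, C and D was 0.87 to 0.94. It was 0.43 to 0.64 for pair A against the other 3 pairs, where it had been 0.80 to 0.88. After this step the co-variation of pair A was lower, and that of the other 3 was close to its former value. The step left in level gaps between arrays that were not linked, as in animals 4 and 5. Arrays with carbachol stretched and saline unstretched RNA minus the others gave -1.14, -1.36 and -1.17 for pairs B, C and D in animal 4. In animal 5 these were -0.79, -1.01 and -0.02. Pair A had no such value in animal 4 and -0.26 in animal 5. The part of these gaps in r was not tested.

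The carbachol stretched RNA of animal 2 had the highest residual of all 4 pairs, at 0.61, 1.43, 1.77 and 1.32 from A to D. That of animal 1 was low for each, at -0.62, -0.94, -0.87 and -0.87.

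**Figure D5:**
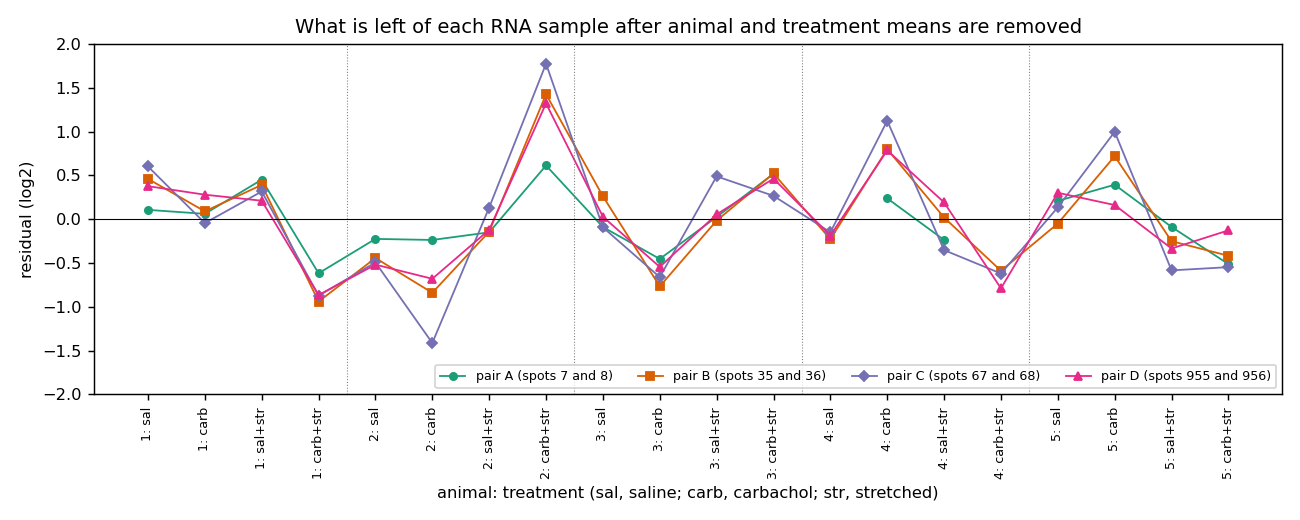
Log2 residual (vertical axis) of each RNA sample (horizontal axis, by animal and treatment) after removal of animal and treatment means, with 1 line per pair. The lines follow each other, with a Pearson r between 0.80 and 0.94 over 18 or 20 RNA samples that share animals and arrays.

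Animals 2 and 3 led the order by mean stretch change for all 4 pairs, and the rest of the order differed between some pairs. By mean stretch change, animal 2 was first, then 3, 1, 4 and 5, for both pair B and pair C. For pair D the order was 2, 3, 5, 4 and 1, and for pair A, without animal 4, it was 3, 2, 1 and 5. In saline alone the orders were less alike, at 2, 4, 1, 5 and 3 for pair B and 2, 3, 4, 1 and 5 for pair C.

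Outside the members, the pair most like all 4 by level was the unnamed spots 531 and 532. Its r was 0.73 with pair A, 0.85 with pair B, 0.84 with pair C and 0.78 with pair D. Its stretch change was 0.96, with an adjusted p of 0.116 in limma, so it did not pass. The other pairs named by likeness of level were PRKCE, with r of 0.61 to 0.67 to the 4 members, spots 93 and 94, with 0.65 to pair A, and spots 735 and 736, with 0.62 to 0.74 to the other 3. As residuals, spots 531 and 532 were again the closest to 3 of the 4 members, with r from 0.75 to 0.89. The closest to pair B were spots 1025 and 1026, at 0.87. The stretch change of spots 1025 and 1026 was -0.35, with an adjusted p of 0.582. These correlations share the RNA samples and arrays of the members.

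Neighbouring spots were not called. Of the 8 pairs on either side of the members, 6 had enough values to be tested, and their stretch change lay between -0.03 and 0.12, with adjusted p of 0.667 or higher in limma. One of them, next to pair C, is ITGA6, an integrin subunit that binds laminin, with a stretch change of 0.10.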

How the data were processed

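The authors deposited unlogged spot intensity values, with a column for each dye channel, per the file headers. Scanner, background handling and the rule behind the blank cells, 57.39% of all, were not stated there. Values were log2-transformed with no pseudocount, corrected by loess of the log ratio within arrays (span 0.4, 4 iterations), and each array was then moved by the median difference of the 193 spots present on all 20 arrays. Duplicates were averaged where both had values, and Cy3 and Cy5 labellings of an RNA, both required, were averaged too. A pair with at least 3 animals per group was tested, 190 of 520. The fit used limma 3.58.1 (lmFit, eBayes; R 4.3.3), with the animal as fixed block and two-sided p-values adjusted by Benjamini-Hochberg over the 190 pairs at 0.05. Each comparison was fitted as its own coefficient, which keeps standard errors exact with missing values. The script was tested on simulated data, and figures used matplotlib 3.10.9.

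The design pairs samples by animal. Deviations from group means correlated at 0.508 on average within an animal and at -0.157 between animals. Members, lists, tests and named pairs were chosen with earlier results of these data known. Beside the members, the text names the 3 pairs likest each by level, the likest by residual, and the other pairs called for stretch. Alternatives covered the block, scaling, dye, array, duplicates, bright and dim spots, a log offset of 50, variance model, array sets and each animal.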

Additional observations from a re-analysis of the deposited data

How the results depend on the processing

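The number of pairs called for stretch was 6. Without the replicate block it was 4, with Cy5 alone 3, with animals 4 and 5 alone 3, and with array effects removed 10, whose construction was chosen after seeing the data. Leaving out 1 animal in turn gave 4 to 7. The other comparisons called 0 pairs without the replicate block and without any 1 animal. Animals 4 and 5 alone gave 2 pairs for carbachol, 5 for its dependence and 5 for carbachol in unstretched strips. Animals 1, 4 and 5 alone gave 5 for the dependence, and quantile normalization gave 1 for carbachol in stretched strips. The stretch changes that selected the members, given as values only, ran over the settings from 1.67 to 2.38 for pair A, 1.38 to 2.89 for pair B, 1.48 to 3.86 for pair C and 0.65 to 2.08 for pair D. The settings with animals 1, 4 and 5 alone, with animals 2 and 3 alone and with 1 labelling per RNA were added after seeing the data.

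Carbachol differences in stretched strips changed sign for 3 pairs. Pair B had -0.598 with animals 1, 4 and 5, -0.284 with animals 4 and 5, -0.0286 with array effects removed and -0.288 to 0.437 over the animals left out. Pair C had 0.201 with Cy5, 0.537 with animals 2 and 3 and -0.583 to 0.125 over the animals left out. Pair D had -0.116 with Cy5, -0.587 with animals 1, 4 and 5, -0.357 with animals 4 and 5, -0.0212 with array effects removed, -0.0500 with even spots, -0.0245 with quantile normalization and -0.331 to 0.299 over the animals left out. In unstretched strips pair A had -0.0863 with Cy3, -0.0251 with animals 2 and 3 and -0.123 with arrays not shifted. The dependence of the stretch change on carbachol was 0.209 with animals 1 to 3 and 1.12 with animals 2 and 3 for pair B, 0.269 with animals 2 and 3 for pair C, and -0.12 with Cy5 and -0.188 to 0.439 over the animals left out for pair A. For pair D it was 0.146 with animals 1 to 3, 0.904 with animals 2 and 3 and -0.790 to 0.0994 over the animals left out. The cause of these changes was not tested. Arrays not shifted moved the median dependence over all 190 pairs to 0.28 and the median carbachol difference in unstretched strips to -0.20, and Cy3 alone moved them to 0.11 and -0.13. Leaving out readings above 50000 left pair C untested, and pair A was untested with animals 4 and 5 alone and with animals 1, 4 and 5 alone. The filter on dim pairs removed none.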
